A study of Mus musculus with 4 samples.

Results

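The basement membrane is the thin sheet of matrix on which an epithelium such as the otocyst rests. Laminins, each a trimer of an α, a β and a γ chain, polymerise into one network beneath the cells, and type IV collagen forms another. Nidogens and the heparan sulfate proteoglycan perlecan link these networks, while fibulins and fibronectin join them to the matrix of the surrounding mesenchyme. Described here are 10 genes of this matrix: the nidogens Nid1 and Nid2, the laminin chains Lama1, Lama4, Lama5 and Lamc1, Hspg2, which encodes perlecan, the fibulins Fbln1 and Fbln2, and Fn1, which encodes fibronectin. All 10 are among the 31791 gene and target names of the array, and the rule took every non-control probe that carries 1 of these names, 14 probes in all, each read on its own.

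The otocyst is the epithelial vesicle from which the inner ear forms, and total RNA was taken from mechanically dissected otocysts of NMRI mouse embryos (stage E10.5). Mutant embryos (Tbx2/3cDKO) carried Pax2-cre and were homozygous for floxed alleles of the T-box factor genes, Tbx2(fl/fl) and Tbx3(fl/fl), which could recombine where Pax2-cre is active, the otic region and other tissues. Control embryos are given as Tbx2(fl/?);Tbx3(fl/?), which leaves the second copy of each gene unstated and names no cre. Each of 4 arrays compared 1 mutant RNA with 1 control RNA, both female on replicates 1 and 2 and both male on replicates 3 and 4, and the mutant carried the red dye AlexaFluor647 on replicates 1 and 3 and the green dye AlexaFluor555 on replicates 2 and 4. The labels do not say whether an RNA came from 1 embryo or a pool, and a p-value therefore reflects the spread among these samples alone, part of which may be technical.

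Tbx3 had a log2 ratio of mutant over control of -3.43 ± 0.16 (SD, n = 4 arrays), and was between -3.61 and -3.25 on the arrays. Tbx2 had 0.06 ± 0.23, from a probe whose place relative to the deleted part is not known here. Between 58.4% and 63.2% of the non-control spots were well above background in a channel, 0 spots were saturated, and across all tested probes Pearson's r between the log2 ratios of 2 arrays was lowest for replicates 1 and 4 (0.643) and highest for replicates 1 and 2 (0.849), probes not being independent replicates. All 10 otic epithelium markers were measured, and 8 of them were lower in the mutant, Oc90, an otoconial matrix protein gene, with -1.83 ± 0.24 and Krt8, an epithelial keratin gene, with -0.81 ± 0.11. RNA of other cells was present as well, and all 10 endothelial and all 8 erythroid markers were higher in the mutant.

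In each of 3 member genes, more than 1 probe of 60 bases reads the transcript, and their ratios are given separately. The probes of a gene differ in signal level as well as in place. Nid1 has 3 probes, whose starts lie up to 74297 bases apart on chromosome 13 (mm9, plus strand). Hspg2 has 2, which start 947 bases apart on chromosome 4, and Fbln1 has 2, which start 448 bases apart on chromosome 15. The first 30 bases of each, as the files give them, run from 5′ to 3′.

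Nid1 probe 1 (13530138 to 13555992, across at least 1 intron): tggaactgatcggagaactgagcttctatg
Nid1 probe 2 (13604435 to 13604494): cagatgtatacaagtattggatgattcctc
Nid1 probe 3 (13602780 to 13602839): ttctagagccataggacttcttcctaattc
Hspg2 probe 1 (137126392 to 137126451): gaacgagggatgatgataaccctgcccatc
Hspg2 probe 2 (137125445 to 137125504): ttctcttctgggatcacaggctgtatcaag
Fbln1 probe 1 (85115998 to 85116057): ttttttaaccaacggggctctttgtgtttc
Fbln1 probe 2 (85115550 to 85115609): gtagtttcccaccggaacgtcgtcaatgta

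Nid1 probe 1 is 60 bases long but covers 25855 bases of the genome, so it joins sequence from separate exons near the start of the gene. Which exon or untranslated region the other probes read was not determined, because no annotation of this build was used here. The remaining genes have 1 probe each. The Nid2 probe lies on chromosome 14 at 20630490 to 20630549, that of Fbln2 on chromosome 6 at 91222118 to 91222177, and that of Fn1 on chromosome 1 at 71632116 to 71632175. Among the laminin chains, Lama1 is read on chromosome 17 at 68171924 to 68171983, Lama4 on chromosome 10 at 38825794 to 38825853, Lama5 on chromosome 2 at 179911079 to 179911138 and Lamc1 on chromosome 1 at 155066156 to 155066215 (all mm9).

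The comparison of mutant with control otocysts asks which transcripts were deregulated, as the series title states. Among the basement membrane genes the probes fell into 2 sets. Nid1, Nid2, Lama1, Lama4, Lamc1, Fbln2 and Fn1 were higher in the mutant, by 1.41-fold (Lamc1) to 1.74-fold (Lama1) with the probe of highest signal. Hspg2, Lama5 and Fbln1 did not pass the test with any probe. Of the 14 probes 8 were called higher and 0 lower at a Benjamini-Hochberg adjusted p under 0.05 in limma, and 0.05 is the threshold throughout. Over all 23186 probes tested, 12.4% were called higher and 9.7% lower, against 57.1% called higher among these 14 probes. The genes were chosen with earlier results of these data known. Shares of the 14 probes set beside those of all probes, here and below, are therefore a description and no test. The median log2 ratio of the 14 probes was 0.51, against 0.00 over all tested probes. A rise of at least 1.5-fold that passed the test was reached by 5 of the 14, against 3.05% of all probes tested.

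**Figure D1:**
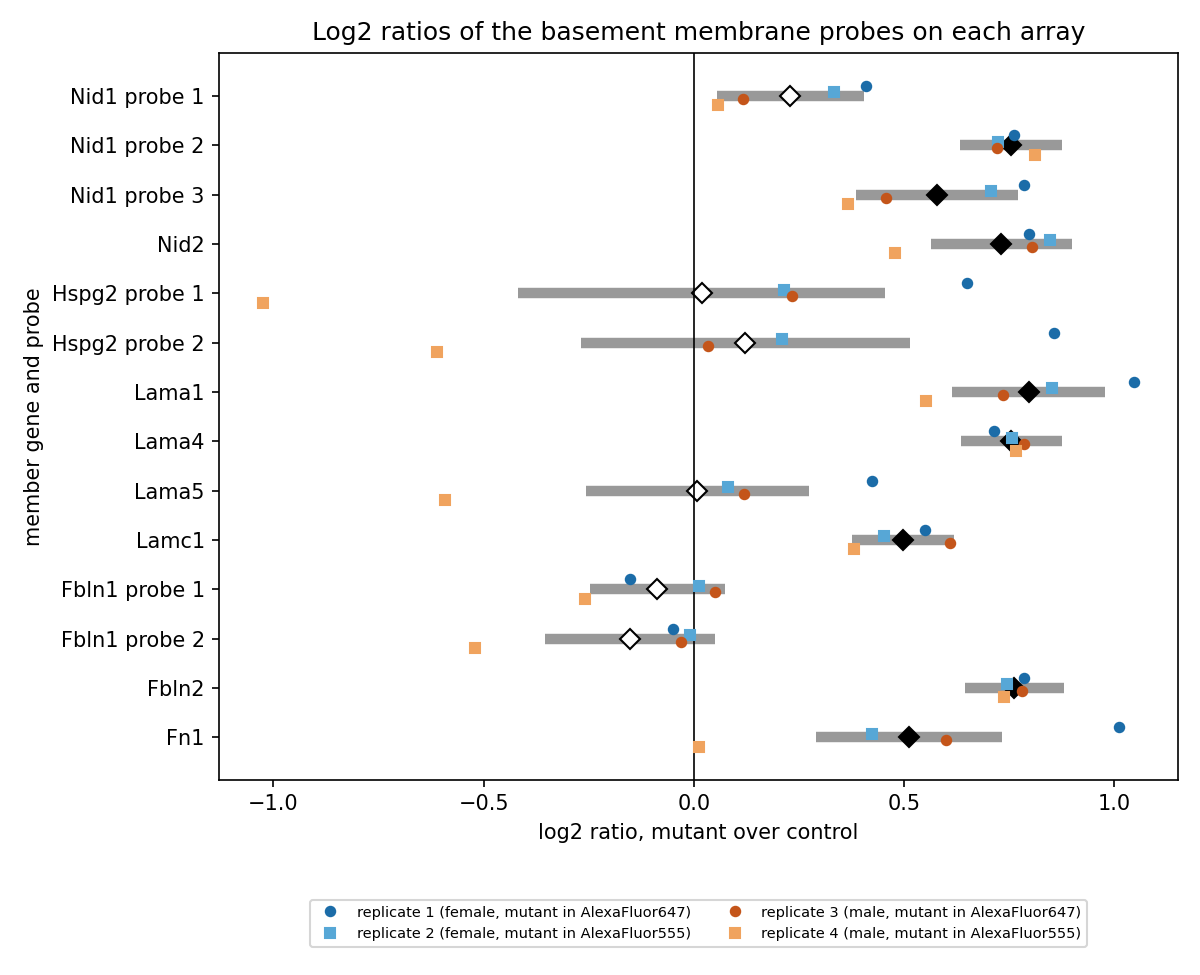
Log2 ratio of mutant over control (x axis) for the 14 probes of the 10 genes (y axis). Small points are the 4 arrays, coloured by replicate, with circles where the mutant carried AlexaFluor647 and squares where it carried AlexaFluor555; diamonds are limma estimates (filled where the adjusted p is under 0.05) and grey bars their 95% confidence intervals. The 4 points of Lama4, Fbln2 and Nid1 probe 2 lie close together near 0.76, while those of both Hspg2 probes run from below -0.6 to above 0.6.

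The nidogens are elongated glycoproteins that bind the laminin γ1 chain at one end and type IV collagen and perlecan at the other. For Nid1 probe 2, the brightest of its probes, the log2 ratio was 0.76, 0.72, 0.72 and 0.81 on replicates 1 to 4, and the lowest mutant level, 12.76 on the log2 scale, lay above the highest control level, 12.28. The groups did not overlap, and the mean of 0.75 ± 0.04 (SD, n = 4 arrays) was a 1.69-fold rise (limma SE 0.05, adjusted p = 0.000125). Nid1 probe 3, which lies close to probe 2, had 0.78, 0.71, 0.46 and 0.37, and its mean of 0.58 ± 0.20 passed the test as well (adjusted p = 0.00262). With this probe both female arrays had higher ratios than both male arrays, and the groups' levels did not overlap.

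Nid1 probe 1, near the start of the gene, was dim, with log2 levels of 7.12 to 7.36 in the mutant and 6.87 to 7.10 in the control, and was well above background in the control on 2 of 4 arrays. Its log2 ratios were 0.41, 0.33, 0.12 and 0.06, all above 0 but none as high as those of probe 2 on the same array. The mean of 0.23 ± 0.17 (SD, n = 4 arrays; limma 95% confidence interval 0.05 to 0.40) missed the threshold with an adjusted p of 0.0704. Without replicate 4 the limma estimate, with both dye orientations weighed equally, was 0.30. The scanner software's own ratio for this probe was 0.66 (adjusted p = 0.0413). With an offset of 16 in place of 50 it was 0.31 (adjusted p = 0.0616), and with no background correction at all it was 0.29 (adjusted p = 0.0267). The mean of 0.23 passed with no dye term (adjusted p = 0.0449) and with sex as an interaction (adjusted p = 0.00699). The call of this probe thus depended on the settings.

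Nid2, the second nidogen of vertebrates, had log2 ratios of 0.80, 0.85, 0.81 and 0.48 on replicates 1 to 4. The lowest mutant level, 11.97, was above the highest control level, 11.49, and replicate 4 stood below the other arrays. Its mean of 0.73 ± 0.17 (SD, n = 4 arrays) passed the test (1.66-fold, limma adjusted p = 0.000518). On the same arrays Nid2 and Nid1 probe 2 differed by -0.02 ± 0.21 in log2 ratio, Nid2 being the higher on 3 of 4 arrays (two-sided exact sign-flip permutation test, p = 1).

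The laminin γ1 chain, encoded by Lamc1, is part of most laminin trimers, and the α chain sets which cell receptors a trimer binds. Lamc1 had log2 ratios of 0.55, 0.45, 0.61 and 0.38, with mutant levels of 13.65 to 13.84 and control levels of 13.06 to 13.29 that did not overlap. Its mean of 0.50 ± 0.10 (SD, n = 4 arrays) was a 1.41-fold rise (limma adjusted p = 0.000694). Lama1 encodes the α1 chain of the earliest embryonic laminin, which underlies many embryonic epithelia.

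For Lama1 the log2 ratios were 1.05, 0.85, 0.74 and 0.55, and the mutant levels of 13.00 to 13.39 lay above the control levels of 12.35 to 12.45. The mutant levels thus spread more than the control levels. With a mean of 0.80 ± 0.21 (SD, n = 4 arrays; 1.74-fold, limma adjusted p = 0.000526), Lama1 had the highest mean ratio of the 14 probes. Lama4 encodes the α4 chain, found in laminins of blood vessels and mesenchymal tissues. Its log2 ratios of 0.71, 0.76, 0.79 and 0.77 were nearly the same on every array, and mutant levels of 11.24 to 11.46 did not overlap the control levels, which averaged 10.61. The rise was 1.69-fold (0.76 ± 0.03, limma adjusted p = 0.000119).

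Lama5, the gene of the α5 chain that is widespread in epithelial and vascular basement membranes, behaved differently from array to array. It had log2 ratios of 0.42, 0.08, 0.12 and -0.59, positive on 3 arrays and negative on replicate 4, where the control level was 13.47, the highest of the 4 control RNAs, and the mutant level 12.88, the lowest of the 4 mutant RNAs. The mean was 0.01 ± 0.43 (SD, n = 4 arrays), with a limma 95% confidence interval of -0.26 to 0.27 (adjusted p = 0.970). Without replicate 1 the limma estimate, with both dye orientations weighed equally, was -0.07, and without replicate 2 it was -0.16. Neither is the plain mean of the 3 arrays left. On each array Lama4 and Lama1 had higher ratios than Lama5. The difference of log2 ratios was 0.75 ± 0.44 for Lama4 minus Lama5 and 0.79 ± 0.25 for Lama1 minus Lama5, positive on 4 of 4 arrays (two-sided exact sign-flip permutation test, p = 0.125 for each, the smallest that 4 arrays can give; 0.175 after Benjamini-Hochberg adjustment over 7 pairs). The 7 pairs were chosen after their values were seen, so these p-values are a description and no test.

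Perlecan is a large heparan sulfate proteoglycan that binds laminin networks, nidogen and growth factors. Hspg2 probe 1 had log2 ratios of 0.65, 0.22, 0.23 and -1.03 on replicates 1 to 4, and Hspg2 probe 2 had 0.86, 0.21, 0.03 and -0.61. The 2 probes, which read neighbouring sequence, thus gave the same order of their extremes, with replicate 1 the highest and replicate 4 the lowest. For probe 1 the mutant levels ran from 12.96 to 13.85 and the control levels from 13.20 to 13.98, so that the groups overlapped almost fully. For probe 2 the mutant levels stayed within 8.55 to 8.85, while the control levels ran from 7.94 on replicate 1 to 9.26 on replicate 4. The means of 0.02 ± 0.72 and 0.12 ± 0.60 (SD, n = 4 arrays) had limma 95% confidence intervals of -0.42 to 0.46 and -0.27 to 0.51 and did not pass the test (adjusted p = 0.959 and 0.659). This result rests on single arrays. For probe 1 the limma estimate was 0.33 without replicate 4, -0.29 without replicate 2 and -0.09 without replicate 1. For probe 2 it was -0.08 without replicate 1 and also without replicate 2. These estimates weigh both dye orientations equally and are not plain means of the arrays left. Each such fit leaves a single array in 1 dye orientation, which the dye term fits exactly, so no test of them is given. A direction for Hspg2 was therefore not settled by these arrays.

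Fibulins are secreted glycoproteins with repeated epidermal growth factor-like modules that bind laminin, nidogen, perlecan and fibronectin. Fbln2 had log2 ratios of 0.79, 0.75, 0.78 and 0.74, the narrowest spread of the 14 probes, and mutant levels of 13.62 to 13.93 lay above control levels of 12.84 to 13.19. The mean of 0.76 ± 0.02 (SD, n = 4 arrays) was a 1.70-fold rise (limma adjusted p = 0.000105). Both probes of Fbln1, the other fibulin of similar build, stayed near or below 0. With Fbln1 probe 1 the log2 ratios were -0.15, 0.01, 0.05 and -0.26, and with Fbln1 probe 2 they were -0.05, -0.01, -0.03 and -0.52. Their levels overlapped between mutant and control, and neither passed the test (means of -0.09 ± 0.14 and -0.15 ± 0.25, limma adjusted p = 0.423 and 0.266). Single arrays moved probe 2, whose limma estimate was -0.28 without replicate 2 and -0.02 without replicate 4. Neither estimate is the plain mean of the arrays left.

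The ratio of Fbln2 exceeded that of Fbln1 on every array, by 0.85 ± 0.14 (SD, n = 4 arrays) on the log2 scale with Fbln1 probe 1 and by 0.91 ± 0.23 with probe 2 (two-sided exact sign-flip permutation test, p = 0.125, the smallest possible, and 0.175 after adjustment over the 7 pairs). Because these pairs were chosen after their values were seen, the p-values are a description and no test. Fibronectin is a dimeric glycoprotein of the interstitial matrix that integrins assemble into fibrils. Fn1 had log2 ratios of 1.01, 0.42, 0.60 and 0.01 on replicates 1 to 4, higher on the arrays with the mutant in red (replicates 1 and 3) than on those with the mutant in green. The fit takes out a dye term, which it put at 0.29 for Fn1, 0.42 and 0.32 for Hspg2 probes 1 and 2 and 0.26 for Lama5. On replicates 2 and 3, of opposite dye, the log2 ratios were 0.22 and 0.23 for Hspg2 probe 1. For Hspg2 probe 2 they were 0.21 and 0.03, and for Lama5 0.08 and 0.12. In these 3 probes a dye effect and a low replicate 4 cannot be told apart. The lowest mutant level, 15.72, and the highest control level, 15.71, both on replicate 4, all but touched. The mutant levels, up to 15.87, spread less than the control levels, which went down to 14.86. The mean of 0.51 ± 0.41 was a 1.43-fold rise that passed the test (limma adjusted p = 0.00817). Under the alternatives that used all 4 arrays the adjusted p was at most 0.0317. With an array left out the limma estimate ran from 0.41 to 0.61.

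**Figure D2:**
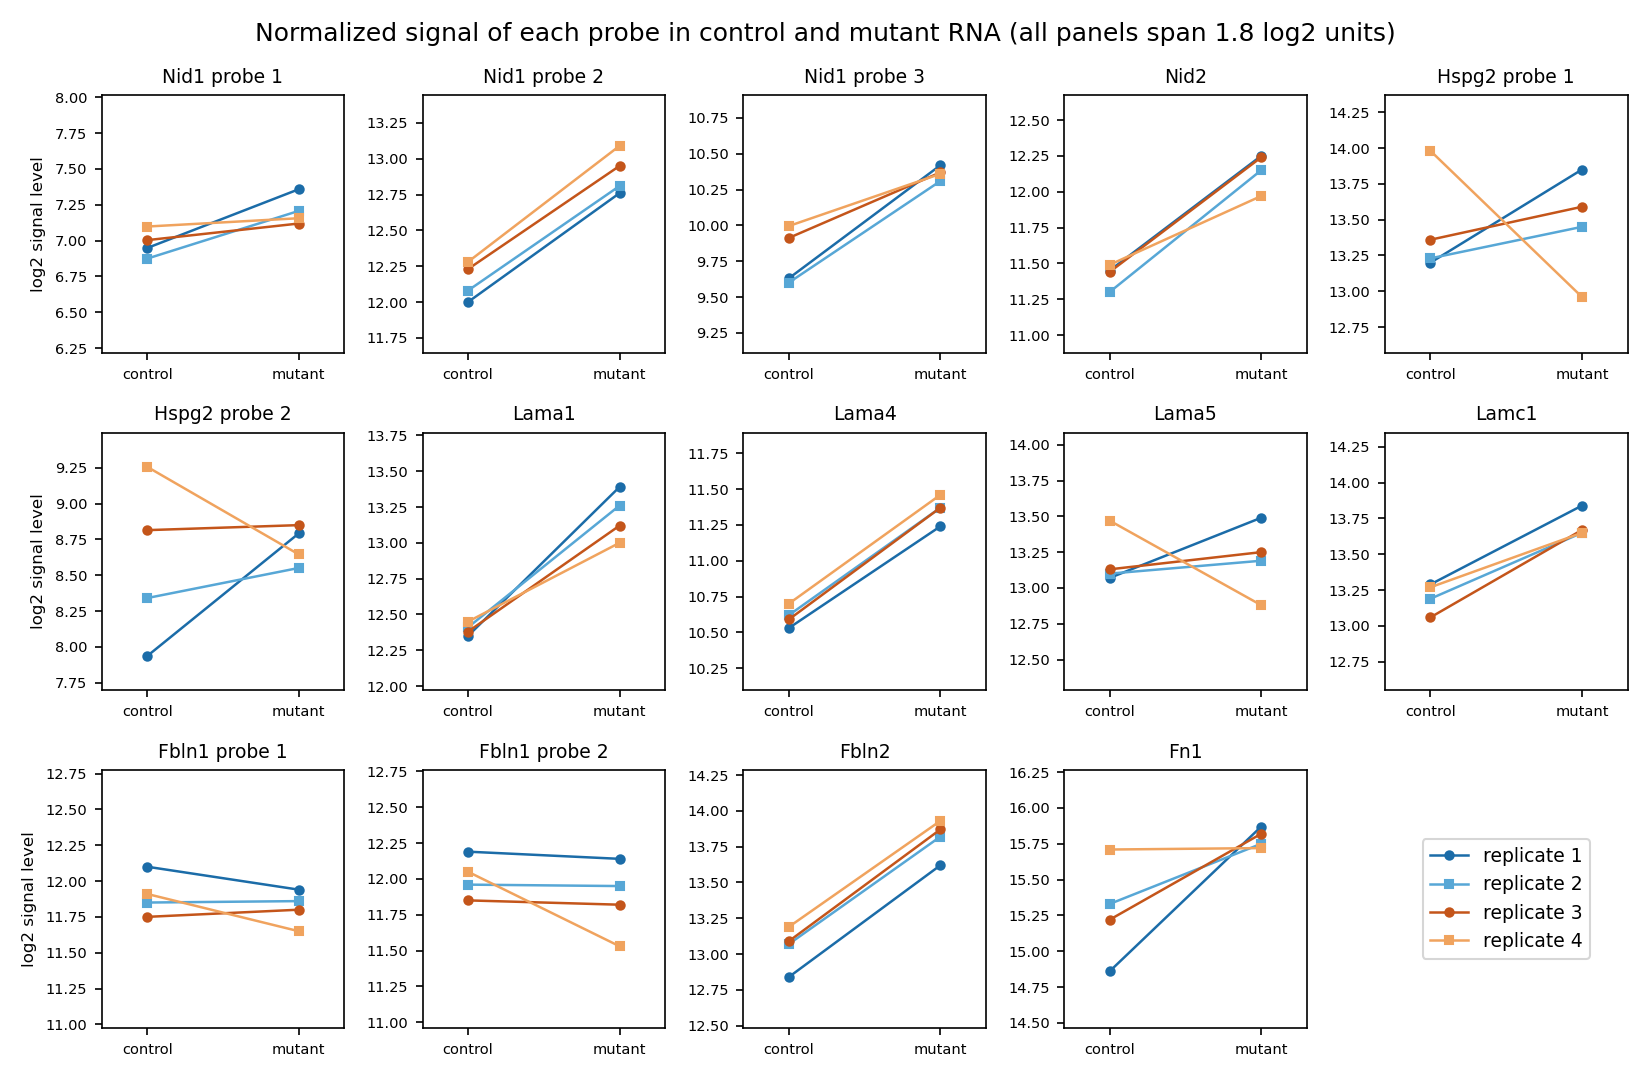
Log2 signal level after normalization within and between arrays (y axis) in the control and mutant RNA of each array (x axis), 1 panel for each of the 14 probes, with a line joining the 2 RNAs of an array and colours marking the replicates. All lines rise for Nid1, Nid2, Lama1, Lama4, Lamc1 and Fbln2, the Fn1 line of replicate 4 is almost level, and for Hspg2 and Lama5 the line of replicate 4 falls while the others rise.

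Across the 14 probes 9 were higher on all 4 arrays, 3 of Nid1 and 1 each of Nid2, Lama1, Lama4, Lamc1, Fbln2 and Fn1, against 20.6% of all probes tested. Lower on all 4 was 1 probe, Fbln1 probe 2, against 20.1% of all probes. In the 9 that were higher on every array the lowest mutant level exceeded the highest control level, which held for 12.3% of all probes. Replicate 4 had the lowest log2 ratio for 12 of the 14 probes, where it was the lowest array for 29.2% of all tested probes with values on all arrays. The median of the 14 probes was 0.74, 0.44, 0.53 and 0.21 on replicates 1 to 4, while the median of all tested probes was between -0.00 and 0.01 on each array.

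Probe composition also moved with the array. On replicate 4 the 3469 probes with more than 50% G and C had a median log2 ratio of -0.10, and the 8856 with under 40% had 0.06. These medians were -0.06 and 0.05 on replicate 3, and between -0.011 and 0.015 on replicates 1 and 2. The Hspg2 probes have 55% G and C and the Lama5 probe 38.3%. The part of probe composition in the members' values was not tested.

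In females and males the difference between mutant and control was compared by an interaction term in limma. At an adjusted p under 0.05, 0 of the 14 probes differed between the sexes, and at an unadjusted p under 0.05 there were 7, where 16.6% of all tested probes reached that level and 0.0173% passed the adjusted one. The largest difference was in Hspg2 probe 1, with a mean log2 ratio of 0.43 on the female and -0.40 on the male arrays (adjusted p = 0.131). For Hspg2 probe 2 the means were 0.53 and -0.29 (adjusted p = 0.0691). Fbln2 and Lamc1 had the same mean in both sexes to within 0.01. Each sex has 2 arrays and replicate 4 is 1 of the male ones, so sex and that array cannot be told apart here.

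Other genes of the basement membrane were read through 6 lists, with the brightest tested probe of each gene. Further probes of a gene were not counted and could give another call. Of 65 genes 56 could be tested, and 17 were higher and 4 lower, against 13.1% higher and 9.8% lower over 18440 genes or targets with 1 probe each. Their median log2 ratio was 0.10, so most of the network moved little. Of the other laminin chains, Lamb1, the partner of Lamc1 in many trimers (Lamb1-1 on the array), rose by 0.31 ± 0.09 on the log2 scale (limma adjusted p = 0.00523), Lama2 0.30 ± 0.06 (0.00711) and Lamc3 0.36 ± 0.20 (0.0143).

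**Figure D3:**
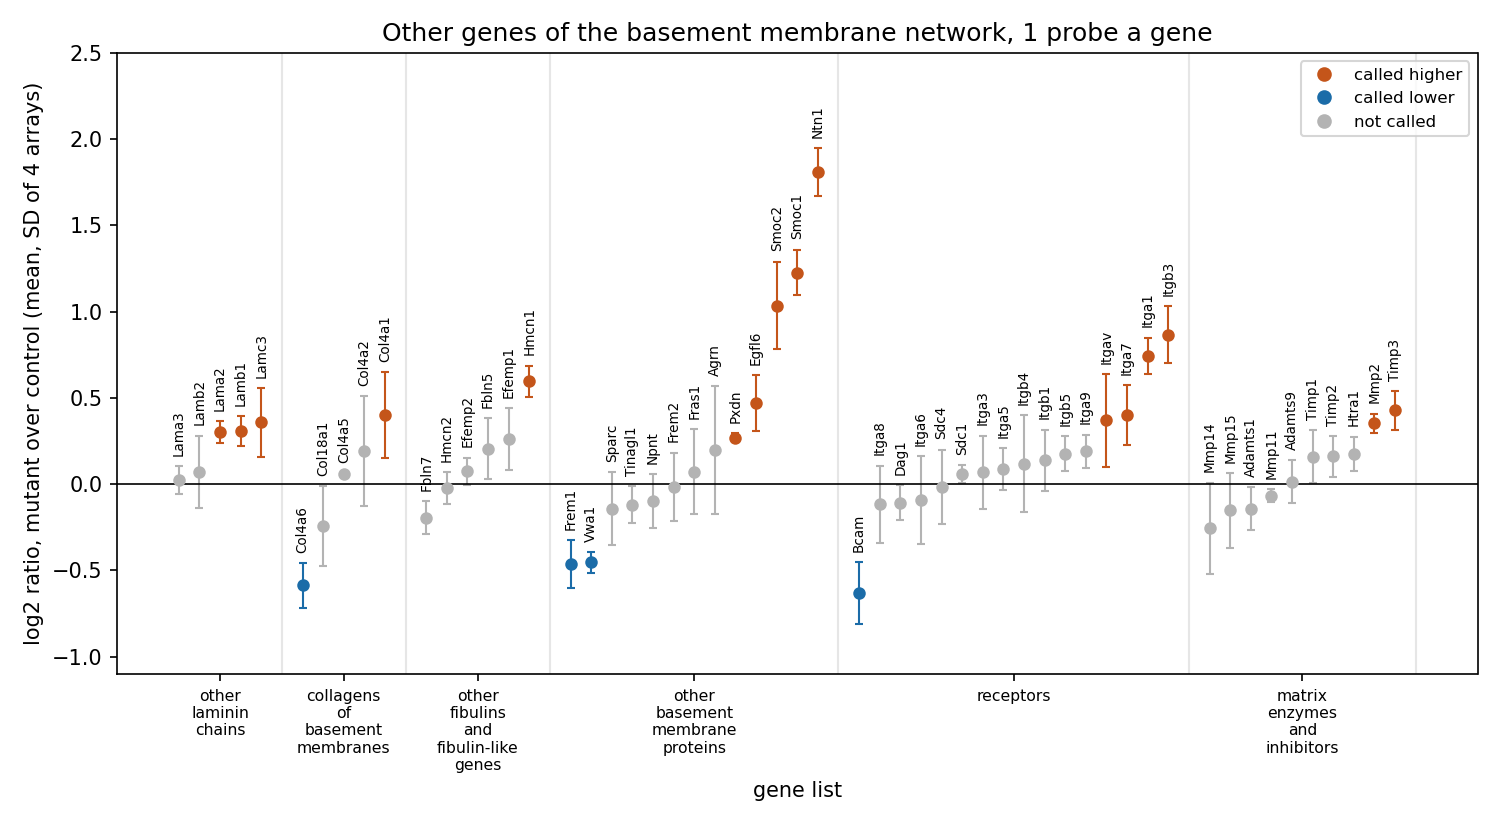
Log2 ratio of mutant over control (y axis, mean and SD of 4 arrays) for 55 of the 56 tested genes of the 6 lists of other basement membrane genes (x axis), coloured by the limma call. Of the genes plotted, Ntn1 at 1.81 stands highest and Bcam at -0.63 lowest.

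The collagen list was mixed, with 1 of 5 tested genes higher and 1 lower. Col4a1, a chain of the common type IV collagen, had a log2 ratio of 0.40 ± 0.25 (limma adjusted p = 0.0148) and 0.03 on replicate 4, and Col4a6, a chain of a rarer trimer, had -0.59 ± 0.13 (0.000572). A dimmer probe of Col4a6 had only -0.17 (limma adjusted p = 0.0495). Among other fibulins and relatives 1 of 6 was higher, Hmcn1, which encodes the giant fibulin-like protein hemicentin, with 0.60 ± 0.09 (0.000290). Of 13 other basement membrane proteins tested, 5 were higher and 2 lower. Ntn1, a laminin-related axon guidance factor, had 1.81 ± 0.14 (8.12e-06), and the calcium-binding matrix proteins Smoc1 and Smoc2 had 1.23 ± 0.13 (2.41e-05) and 1.04 ± 0.25 (0.000432). Vwa1, a perlecan-binding matrix protein gene, had -0.45 ± 0.06 (0.00118).

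The receptors of these proteins are integrins, dystroglycan and others on the cell surface. Of 16 tested, 4 were higher and 1 lower, and the median was 0.10. Itgb3, an integrin β chain that pairs with αv to bind fibronectin and other ligands, had a log2 ratio of 0.87 ± 0.17 (limma adjusted p = 8.84e-05), and Itga1, a collagen receptor chain, had 0.74 ± 0.11 (0.000197). Itga7, of a laminin receptor, had 0.40 ± 0.17 (0.00314) and was well above background in the control on 2 of 4 arrays. Bcam, a receptor of the laminin α5 chain, fell by 0.63 on the log2 scale (SD 0.18, adjusted p = 0.000413). Among the 10 enzymes and inhibitors tested, 2 were higher, the inhibitor gene Timp3 with 0.43 ± 0.11 (0.00278) and the gelatinase gene Mmp2 with 0.35 ± 0.06 (0.00334), and 0 were lower.

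Several cell types beside the otic epithelium make these proteins, and their markers moved on the same arrays. Of 10 endothelial markers 10 were higher, with a median log2 ratio of 0.66, and the sum of their signals on the linear scale was 23690 to 25770 in the mutant and 16030 to 17940 in the control. Of 13 tested periotic mesenchyme markers 10 were higher, with a median of 0.38 and sums of 139200 to 146600 in the mutant and 96100 to 112000 in the control. All 5 macrophage markers were higher (median 0.59, sums of 4116 to 5617 and 3232 to 3534), as were all 8 erythroid markers (median 1.09, sums of 813500 to 888300 and 272300 to 427200). Of these 4 lists only Tcf21, a mesenchyme marker, was too dim to be tested. The 8 neuroblast and neuron markers had a median of 0.99, with 6 higher, and the 3 tested markers of neural crest and glia a median of -0.50, with all 3 lower. The otic epithelium list fell, with a median of -0.57 and sums of 120800 to 140600 in the mutant and 224100 to 245200 in the control. In whole otocyst RNA, more cells of a type and more RNA per cell cannot be told apart, and the part of these cell types in the rises of Nid1, Nid2, Lama1, Lama4, Lamc1, Fbln2 and Fn1 was not tested.

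**Figure D4:**
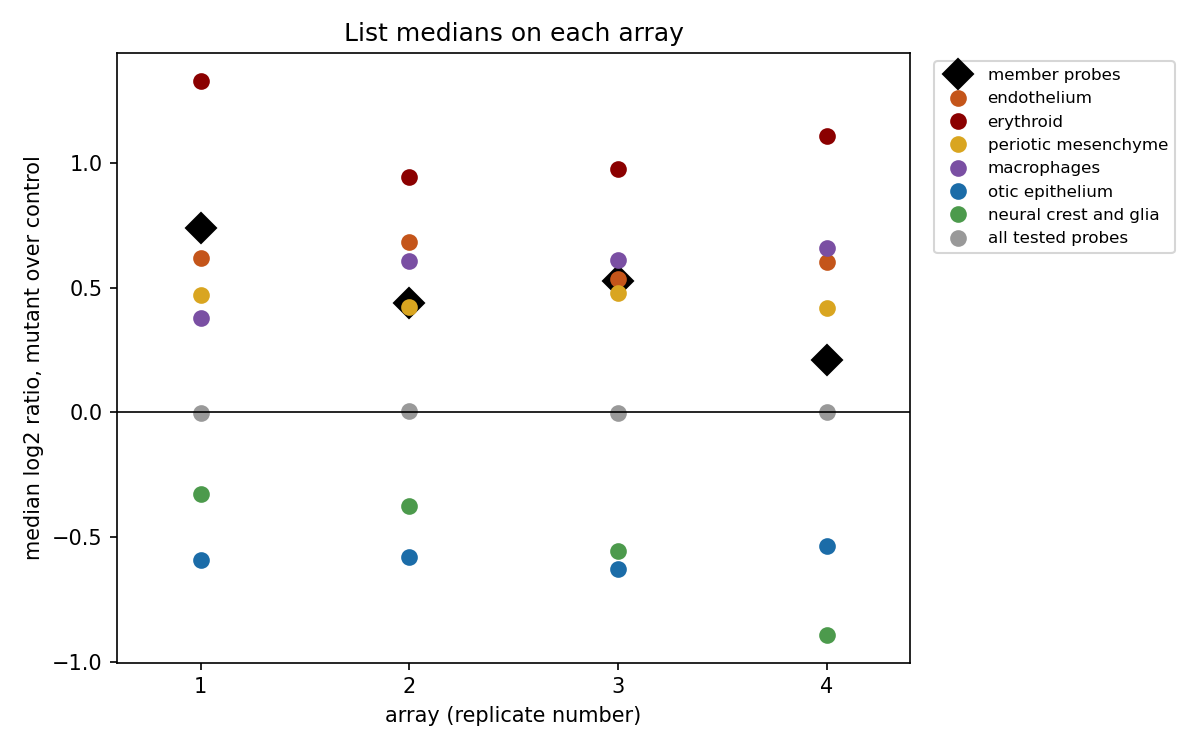
Median log2 ratio of mutant over control (y axis) on each array (x axis, replicate number) for the 14 basement membrane probes, 6 marker lists and all tested probes. The median of the 14 probes was 0.74 on replicate 1 and 0.21 on replicate 4. The endothelial and mesenchyme medians on replicate 4, 0.60 and 0.42, were within the range of the other arrays or within 0.01 of it. The lists of other basement membrane genes are not drawn.

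On replicate 4, where 12 of the 14 probes were lowest, the marker medians of endothelium (0.60) and erythroid cells (1.11) lay within the range of the other arrays, and that of periotic mesenchyme was 0.42, equal to that of replicate 2 to 2 decimals. The median of neural crest and glia markers was -0.89 on replicate 4, against -0.56 to -0.33 on the others. Some lists of other basement membrane genes were also lowest on replicate 4. Their medians there were -0.28 for the collagens, -0.14 for other basement membrane proteins and -0.03 for enzymes and inhibitors. That of other fibulins and relatives was highest there (0.24), and those of other laminin chains (0.29) and receptors (0.13) lay within the range of the other arrays.

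Promoters of 5 of the 10 genes (Nid1, Fbln1, Fbln2, Hspg2 and Lama5) were matched by symbol in a RefSeq table of assembly GRCm38.p6. T-box factors bind a short element whose core is ggtgtga, and this run of letters or its reverse complement tcacacc was looked for on both strands in the 250 bases before each start. It was found in 0 of the 6 windows of these 5 genes and in 3.33% of 32851 windows of all genes, which says only that these letters are not in these windows. The windows of Nid1 and Fbln2, of which Fbln2 and Nid1 probe 2 rose with little spread between arrays, are given here in lower case from 5′ to 3′, at chr13:13437352-13437601 and chr6:91212514-91212763 (GRCm38.p6, plus strand).

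Nid1: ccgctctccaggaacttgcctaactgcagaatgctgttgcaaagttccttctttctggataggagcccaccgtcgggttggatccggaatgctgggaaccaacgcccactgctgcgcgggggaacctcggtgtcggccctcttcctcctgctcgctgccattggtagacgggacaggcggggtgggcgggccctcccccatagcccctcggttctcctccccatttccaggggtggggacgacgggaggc
Fbln2: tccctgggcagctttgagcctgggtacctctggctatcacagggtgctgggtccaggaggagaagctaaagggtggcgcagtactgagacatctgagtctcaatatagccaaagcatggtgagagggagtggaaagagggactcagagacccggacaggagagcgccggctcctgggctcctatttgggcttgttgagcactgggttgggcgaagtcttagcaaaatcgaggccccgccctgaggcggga

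The Nid1 window has 64.4% G and C and 16 CG pairs, the Fbln2 window 58.8% and 8. The median over all windows was 52.4% G and C.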

How the data were processed

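Spot intensities and local background intensities in the 4 deposited files come, per the file headers, from version 10.7.3.1 of Agilent Feature Extraction. Each file also has the software's log10 ratio (red over green), background-subtracted and dye-normalized per the file headers, and flags for spots above background, non-uniform or saturated (other values, per the file headers). In the authors' deposited value table the values are signed fold ratios, and 90.9% to 93.3% lay within 0.001 (log2) of the scanner software's ratios turned by the dye labels.

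Mean signals were corrected with normexp (offset 50) and normalized by loess within each array in limma 3.58.1 (R 4.3.3); control spots had weight 0. Non-uniform spots, 21 to 33 per array and 0 of them on the probes described, were left out, and spots of a probe were averaged. The filter, well above background in 1 genotype on 3 or more of the 4 arrays, kept 23202 of 39429 probes, and 23186 had enough values to be tested. limma's lmFit and eBayes were applied to the log2 ratios (residual degrees of freedom 2, prior 4.84), with a genotype and a dye term, and adjusted by Benjamini-Hochberg over all tested probes. Printed SDs are of the 4 arrays' ratios with the dye effect left in. Levels are after loess and Aquantile normalization. Bright and dim probes alike rest on 4 arrays, which limits the precision.

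Of the other lists, up to 4 genes with the smallest adjusted p under 0.05 were named, with Tbx2 and Tbx3, and 1 such gene is not reported here. Pax2 was at -0.09 (adjusted p = 0.435). The Oc90 and Krt8 values, and the pairs of probes compared, were chosen after their values were seen. The genes and lists were chosen with earlier results of these data known. On simulated arrays with 23186 probes, 65 of 100 probes changed 1.5-fold and 84 of 100 changed 2-fold were recovered, with 4 unchanged probes among 153 calls. No other probes were changed there, and the noise was independent, with no dye effect or shift of an array. In the data 5120 probes were called, so these rates need not hold for the real arrays. Figures were drawn with matplotlib 3.10.9.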

Additional observations from a re-analysis of the deposited data

Results flagged for a closer look

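In 2 of the 14 probes, replicate 4 stood apart from the other arrays by a larger share of the whole range than Dixon's 95% critical value for 4 samples allows. The Nid2 log2 ratio was 0.48 on replicate 4 against 0.80 to 0.85 on the others. With Fbln1 probe 2 it was -0.52 against -0.05 to -0.01. Chance gives such a gap in about 1 in 20 groups.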

How the results depend on the processing

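The count of 8 called probes was 8 to 9 under the alternatives of background correction, scaling, value source, filter, covariates and threshold. Leaving out 1 array gave 8 (without replicate 1 or 3) to 10 (without replicate 2 or 4), of which 2 were called lower without replicate 2. Nid1 probes 2 and 3, Nid2, Lama1, Lama4, Lamc1, Fbln2 and Fn1 kept their direction under all 15 settings. They kept their call under every setting that used all 4 arrays. Not all settings are separate checks. The threshold of 0.01 and the lack of a filter left the ratios unchanged, and 0 spots of the 14 probes were non-uniform. The authors' value table nearly repeats the scanner software's ratios. Of 209 values of single probes under the settings, 195 kept direction and side of the threshold, 8 passed it newly in the same direction and 6 changed sign. Values that changed sign were counted by sign alone, whichever side of the threshold they fell on. The sign changes were in Hspg2 probe 1 (-0.09 without replicate 1 and -0.29 without replicate 2), Hspg2 probe 2 (-0.083 in both) and Lama5 (-0.067 and -0.16). With an array left out the limma estimates ran from -0.29 to 0.33 for Hspg2 probe 1, from -0.083 to 0.33 for Hspg2 probe 2 and from -0.16 to 0.18 for Lama5. These estimates weigh the 2 dye orientations equally and are not plain means of 3 arrays. With an array left out, 1 dye orientation has 1 array, which the dye term fits exactly. The residual spread then comes from the other orientation alone, which limits what the calls under these omissions show. Over all probes 5120 were called, 2952 at an adjusted p under 0.01, and from 3302 (without replicate 3) to 4981 (without replicate 2) with an array left out. Of the other basement membrane genes 21 were called, 32 with sex as an interaction and 18 to 27 with an array left out. The cause of these shifts was not tested. The median of all tested probes moved by 0.02 or less between scalings. The fit is itself paired, since each ratio sets 1 mutant RNA against the control RNA of the same array. No paired analysis was possible beyond this because a further replicate block would leave no ratio to compare within a block.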
